A study of Mus musculus with 27 samples.

Results

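The expression of 41 interferon response and antigen presentation genes was examined in cell lines grown from mouse mammary tumors. The genes were taken from a named list that spans interferon signal factors, RNA sensors, interferon-induced effectors, the immunoproteasome, peptide loading and the MHC class I and class II molecules. Differences between these same lines, among them the level of Ciita in the ΔHD2/- lines, had been used when the list was chosen. All 41 were found among the 24454 genes of the count table, and 40 reached 1 CPM (1 read per 1000000 reads of a library) in at least 2 libraries, as did 13270 genes in all. H2-Aa was the exception.

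The lines came from thoracic mammary tumors of MMTV-PyMT mice on the FVB/N background, in which a mammary tumor virus promoter drives the polyoma middle T oncogene in the mammary epithelium. Every line carried MMTV-PyMT together with a mutant form of both Bcl9 and Bcl9L (B9/B9L), co-activators that link β-catenin to Pygopus. The ΔHD1 form lacks Pygopus binding and the ΔHD2 form lacks β-catenin binding. In the ΔHD1/fl (2 lines) and ΔHD2/fl (2 lines) genotypes the other allele was floxed and still functional, whereas in the ΔHD1/- (2 lines) and ΔHD2/- (3 lines) genotypes the floxed allele had been recombined in culture by an adenovirus carrying Cre and GFP. Each of the 9 lines was sequenced after no cytokine, after Wnt3a at 100 ng/ml for 3 days, and after TGFβ at 2 ng/ml for 4 days, which gave 27 libraries of 21864011 to 33692360 reads (median 25956848). The libraries without cytokine are labelled with 4 days, and by the labels plating and RNA isolation were simultaneous for all, so the Wnt3a libraries had 1 day less of exposure than the TGFβ libraries. At these depths 3 reads correspond to 0.089 to 0.137 CPM, and lower values rest on fewer reads than that. The labels describe replicate lines as coming from different mice, but the log2 levels of ΔHD2/- lines 2 and 3 correlated across genes at 0.993 to 0.997, against 0.794 to 0.957 for every other pair of lines under one treatment.

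Type I interferons signal through a receptor to factors that include Stat2 and Irf9, which bind an element called the ISRE and switch on antiviral genes. Interferon γ acts on another element, called GAS, and raises the machinery that cuts, transports and displays peptides on MHC class I. Class II molecules are normally a property of professional antigen-presenting cells and depend on the transactivator Ciita. Epithelial tumor cells can acquire either program, and TGFβ is known as an immunosuppressive cytokine in tumors.

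The stretches before the start sites of 4 members that were lower in CPM under TGFβ in each of the 9 lines are shown because they hold the ISRE letters. The search used GAAANNGAAA for ISRE and TTCNNNGAA for GAS on both strands of the 250 bases upstream of each start, in the RefSeq promoter set of the GRCm38.p6 build. Of the 41 members 31 had such a window. The lower-case runs below are the last 150 bases before the start, 5′ to 3′ on the strand of the gene, and the capitals mark ISRE matches, some of which overlap each other.
Isg15 (chr4:156200819-156200968, minus strand): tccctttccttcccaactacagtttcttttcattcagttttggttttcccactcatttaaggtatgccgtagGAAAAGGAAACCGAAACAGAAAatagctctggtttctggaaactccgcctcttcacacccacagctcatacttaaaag
Ifit1 (chr19:34640739-34640888, plus strand): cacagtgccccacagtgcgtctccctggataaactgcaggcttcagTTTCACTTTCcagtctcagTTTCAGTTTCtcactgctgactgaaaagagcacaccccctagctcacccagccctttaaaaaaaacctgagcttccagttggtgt
Ifit3 (chr19:34583379-34583528, plus strand): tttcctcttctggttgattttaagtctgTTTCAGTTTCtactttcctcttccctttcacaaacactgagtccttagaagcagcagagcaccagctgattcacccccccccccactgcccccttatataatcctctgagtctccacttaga
Gbp2 (chr3:142620513-142620662, plus strand): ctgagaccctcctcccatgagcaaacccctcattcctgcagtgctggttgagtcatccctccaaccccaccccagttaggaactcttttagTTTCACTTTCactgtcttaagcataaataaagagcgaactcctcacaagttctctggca

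Isg15 held 3 overlapping matches, Ifit1 held 2, and Ifit3 and Gbp2 held 1 each. Over the members with a window, 11 of 31 (35.5%) had an ISRE match, against 3.46% of the 27025 genes of the promoter set. GAS letters were present in 5 of 31 members (16.1%) and in 8.13% of all genes, and in the Bst2 window an ISRE and a GAS match overlapped. Among the 10 members lower under TGFβ in every line, 5 had an ISRE match (the 4 shown and Stat2, whose match lies farther upstream), and among the other 30 tested members 6 of the 20 with a window had one. No ISRE match was found before Irf7 or Ddx58. These are letters of the reference sequence and not measured binding sites.

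Without cytokine the members differed widely between lines, and 1 line stood out. ΔHD1/fl line 1 had the highest level of 22 of the 40 tested members. Among these 40, Oas1a, Oas2, Mx2 and Cd74 reached the minimum of 1 CPM in 2 libraries only through this line. Of the 36 members that reached it in the other lines, 18 were highest in ΔHD1/fl line 1, as were 14.8% of the 13175 genes that did so. It lay at least 1 log2 unit above the median line for 22 of these 36 members, compared with 4.96% of those genes. Because the list was chosen with such differences in view, these counts describe the lines and carry no test.

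**Figure D1:**
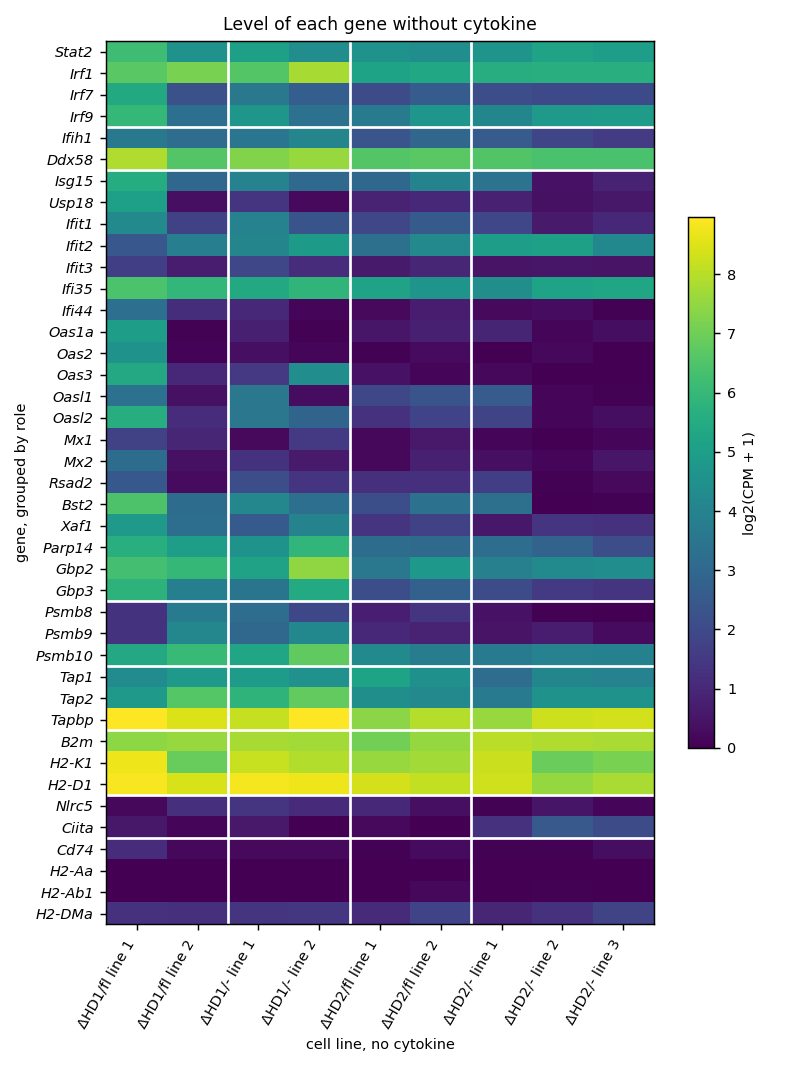
Level of each of the 41 genes in the 9 cell lines without cytokine, as log2(CPM + 1), with genes in rows grouped by role and lines in columns grouped by genotype (white rules). The column of ΔHD1/fl line 1 is the brightest for 22 of the 40 tested genes, among them Irf7, Isg15 and Bst2. Oas1a, Oas2, Mx2 and Cd74 were tested only through this line. The columns of ΔHD2/- lines 2 and 3 are dark for Isg15, Oasl1, Oasl2 and Bst2.

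Bst2, which encodes the virion-tethering protein tetherin, had the widest span on the log2(CPM + 1) scale, from 0 CPM in ΔHD2/- line 2 to 86.2 CPM in ΔHD1/fl line 1. Its untreated level was 7.98 CPM in the other ΔHD1/fl line, 16.6 and 8.67 CPM in the ΔHD1/- lines, 3.45 and 9.22 CPM in the ΔHD2/fl lines, and 8.87 and 0.042 CPM in ΔHD2/- lines 1 and 3. Bst2 was thus near zero in 2 of the 3 ΔHD2/- lines and at a level like that of ΔHD2/fl in the third.

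Oasl2 and Oas3 belong to the oligoadenylate synthetase family, which senses double-stranded RNA. The 2 lines of ΔHD1/fl held 47.3 and 1.19 CPM of Oasl2, which was at 10.7 and 6.44 CPM in ΔHD1/-, at 1.42 and 2.52 CPM in ΔHD2/fl, and at 2.58, 0.090 and 0.251 CPM in ΔHD2/-. Oas3 reached 41.2 CPM (ΔHD1/fl line 1) and 19.8 CPM (ΔHD1/- line 2), and lay between 0 and 1.80 CPM in the other 7 lines. For both genes the 2 ΔHD1/fl lines differed from each other by more than any 2 genotype means did.

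The same line led for other effectors. Isg15, a ubiquitin-like protein that is attached to many targets after interferon exposure, was at 46.3 CPM in ΔHD1/fl line 1, between 6.90 and 15.0 CPM in the other ΔHD1 and ΔHD2/fl lines and in ΔHD2/- line 1, and at 0.360 and 0.837 CPM in ΔHD2/- lines 2 and 3. Usp18, which removes Isg15 and restrains receptor signaling, was at 32.4 CPM there and at 0.178 to 1.54 CPM in the other lines. Oas1a was at 31.1 CPM against 0.030 to 0.917 CPM, and Oas2 at 22.7 CPM against 0 to 0.299 CPM. Both reached the minimum only through this line. Ifit2, an RNA-binding translation inhibitor, went the other way, with its lowest value (4.34 CPM) in this line.

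The immunoproteasome subunits and the class I peptide supply genes were ordered in several ways. Psmb9, an inducible catalytic subunit, was at 16.7 and 17.2 CPM in ΔHD1/fl line 2 and ΔHD1/- line 2, at 6.97 CPM in ΔHD1/- line 1, and at 0.209 to 1.51 CPM in the other 6 lines, ΔHD1/fl line 1 among these. Psmb10 and the transporter gene Tap2 were also highest in ΔHD1/- line 2, at 107 and 111 CPM, and second in ΔHD1/fl line 2, at 64.0 and 96.6 CPM. Psmb8 was highest in ΔHD1/fl line 2 (11.5 CPM) and at 2.82 CPM in ΔHD1/- line 2. Tap1 was highest in ΔHD2/fl line 1 (35.8 CPM), and the loading factor Tapbp was at 497 CPM in ΔHD1/- line 2 and 490 CPM in ΔHD1/fl line 1. Gbp2, an interferon-induced GTPase, was highest in ΔHD1/- line 2 (179 CPM), with 77.4 and 61.4 CPM in ΔHD1/fl and 11.1 to 35.1 CPM elsewhere. B2m, the invariant light chain, ranged from 132 to 260 CPM, H2-D1 from 187 to 466 CPM, and H2-K1 from 117 to 421 CPM, the last 2 being class I heavy chains. Nlrc5, the class I transactivator, stayed at or under 1.62 CPM in all untreated lines.

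These orders ran beside differences in cell state. Epcam and Cdh1, which encode epithelial adhesion proteins, were at most 0.075 and 0.522 CPM in every library of ΔHD1/fl line 2 and ΔHD1/- line 2. The keratins of the 6-gene epithelial list were partly present there. Without cytokine Krt14 was at 356 and 223 CPM in these lines, Krt8 at 0.336 and 1089 CPM, and Krt18 and Krt5 at 0.373 to 2.23 CPM, and the whole list summed to 358 and 1315 CPM against 3774 to 19530 CPM in the other 7 lines. The 7 fibroblast markers summed to 2041 and 5430 CPM in the same libraries, with Col1a1 at 659 and 2603 CPM and Lum and Thy1 at 0, against 1.05 to 217 CPM in the other 7. The part of these markers in the levels of Psmb9, Psmb10, Tap2 and Gbp2 was not tested. Summed over 9 myeloid and dendritic markers the libraries held 3.10 to 187 CPM, the top value coming from Csf1r in ΔHD1/- line 2, while the pan-leukocyte gene Ptprc did not exceed 0.252 CPM. The 6 lymphoid markers together did not exceed 0.252 CPM. Of the interferon genes examined, Ifng was listed at 0 CPM throughout and Ifnb1 at no more than 0.046 CPM.

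Ciita was measured mainly in the ΔHD2/- lines. Without cytokine it was at 1.44, 4.64 and 3.10 CPM in ΔHD2/- lines 1 to 3, at 0.172 and 0 CPM in ΔHD2/fl, at 0.503 and 0.112 CPM in ΔHD1/fl, and at 0.513 and 0 CPM in ΔHD1/-. All 3 ΔHD2/- values lay above all 6 others. Since this difference entered the choice of genes it is given as a description, as are the other ΔHD2/- against ΔHD2/fl values. Of the 40 members Ciita was past the limits used here (an adjusted p of at most 0.05 and a log2 change of at least 1) without cytokine, where 0.55% of tested genes were, and no member was under Wnt3a (0.686%) or TGFβ (0.354%). Nothing is read from that count, which restates how Ciita was chosen. It was 0 in edgeR, with a pseudocount of 0.1, with only the groups compared, with ΔHD2/- lines 2 and 3 averaged, and without either ΔHD2/fl line or ΔHD2/- line 2 or 3.

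The treated libraries of the ΔHD2/- lines held less Ciita than the untreated ones. Under Wnt3a they were at 0.963, 1.45 and 1.61 CPM and the other 6 lines at 0 to 0.349 CPM. Under TGFβ they were at 0.114, 0.813 and 0.834 CPM and the others at 0 to 0.336 CPM, so that ΔHD2/- line 1 then lay within the range of the other lines. Ciita (chr16:10480014-10531064, GRCm38) overlaps Dexi in the annotation, and how the counting treated strand is not given in the sources used here. Dexi was also highest without cytokine in ΔHD2/- lines 2 and 3, at 33.0 and 38.9 CPM against 18.4 to 26.4 CPM in the other 7 lines, and its part in the Ciita counts was not tested.

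The class II molecules did not follow Ciita across untreated lines. H2-Ab1, the class II β chain, was at 0 to 0.148 CPM in all untreated libraries, H2-Aa, the α chain, at 0 CPM, and Cd74, the invariant chain that chaperones both, at 0.043 to 0.251 CPM except in ΔHD1/fl line 1 (1.19 CPM). H2-DMa, part of the peptide exchanger H2-DM, was at 0.961 to 2.55 CPM in every line, and it overlaps the strongly expressed Brd2. In the 2 lines with the most Ciita, H2-DMb1, the partner chain of H2-DMa, was at 0.811 and 1.13 CPM, against at most 0.224 CPM in the other untreated lines.

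Under TGFβ the signal factor Irf7, the sensor Ddx58 and the effectors Ifit1 and Gbp2 were lower, and the class II chain H2-Ab1 was higher. In a linear model of log2(CPM + 1) with the 12 groups as means (limma, Benjamini-Hochberg adjustment over 13270 genes), 4 of 40 members were called lower and 1 higher in the response averaged over the 4 genotypes. The share of all tested genes called lower was 3.56%, and called higher 1.86%. Every line was its own control, and libraries of one line deviated together (correlations 0.509 to 0.94), so the fit was repeated with the line as a block. It called 9 members lower and 1 higher, against 5.9% and 3.02% of all tested genes. The count model edgeR on the recovered reads called 6 lower and 0 higher, against 3.76% and 2.68% of all tested genes. The median fitted log2 change was -0.59 over the members and -0.16 over all tested genes, and 36 of 40 member values were negative. Without the TGFβ libraries H2-Ab1 and Cd74 would not have reached the minimum of 1 CPM in 2 libraries. Without the untreated ones Oas2, Mx1, Nlrc5 and Cd74 would not have reached it. Over the other 35 members 4 were called lower and 0 higher by limma, 9 and 0 with the block, and 5 and 0 by edgeR.

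**Figure D2:**
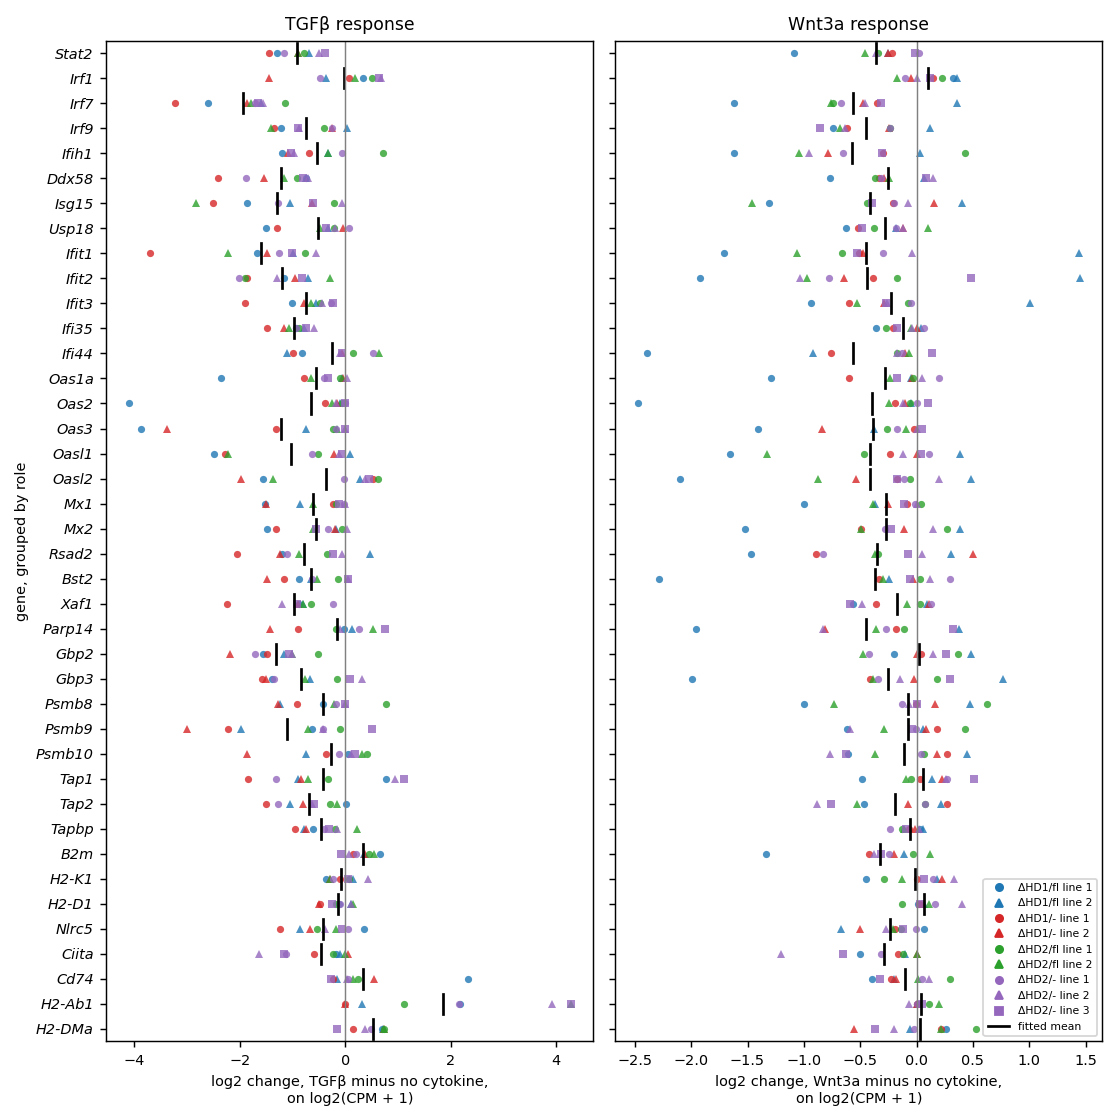
Log2 change of each of the 40 tested genes in each line, TGFβ (left) or Wnt3a (right) minus no cytokine, on log2(CPM + 1), colored by genotype with a symbol per line and a black bar at the fitted mean. Under TGFβ all 9 points of Irf7, Ddx58, Ifit1 and Gbp2 lie left of 0 and H2-Ab1 reaches 4.29 on the right. Under Wnt3a the outlying points on the left are mostly ΔHD1/fl line 1.

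Irf7 (chr7:141263183-141266499), the factor that amplifies type I interferon production, fell most among the signal factors. It went from 42.4 to 6.14 and from 3.62 to 0.532 CPM in ΔHD1/fl lines 1 and 2, from 10.9 to 0.278 and from 5.34 to 0.756 CPM in ΔHD1/-, from 3.10 to 0.869 and from 5.11 to 0.781 CPM in the ΔHD2/fl pair, and from 3.36 to 0.341, 2.93 to 0.333 and 3.06 to 0.292 CPM in ΔHD2/-. Every line was lower under TGFβ, although ΔHD1/fl line 1 still exceeded the untreated level of 7 other lines. The fitted log2 change was -1.93 ± 0.37 (SE, limma adjusted p = 0.00222). Stat2, which is activated at the receptor, was also lower in 9 of 9 lines, by -0.92 ± 0.24 with an adjusted p of 0.0134 in limma, short of the fold limit. Irf9, its partner, was lower in 8 of 9 lines with a limma adjusted p of 0.161, and Irf1, which responds to interferon γ, was higher in 6 lines and lower in 3.

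Ddx58 (chr4:40203777-40239825) encodes the RNA sensor RIG-I. Untreated levels of 82.0 to 235 CPM dropped to 24.4 to 140 CPM under TGFβ, with a decrease in 9 of 9 lines. The 2 ranges overlap because lines start from different levels, and the paired changes ran from -2.41 to -0.71. The mean log2 change was -1.22 ± 0.22 (limma adjusted p = 0.00127). Ifih1, the sensor Mda5, was lower in 8 of 9 lines with a limma adjusted p of 0.192.

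Of 20 antiviral effectors 2 were called lower, and 6 with the line as a block, where the shares of all tested genes called lower were 3.56% and 5.9%. Ifit1 (chr19:34640889-34650009), which binds viral RNA caps, went from 18.1 to 5.00 and 2.31 to 0.674 CPM in ΔHD1/fl, from 14.7 to 0.199 and 4.01 to 0.792 CPM in ΔHD1/-, from 2.76 to 1.21 and 4.81 to 0.249 CPM in the ΔHD2/fl pair, and from 2.75 to 0.568, 0.585 to 0.074 and 1.00 to 0 CPM in ΔHD2/-. The change was -1.59 ± 0.38 (limma adjusted p = 0.00902). Gbp2 (chr3:142620663-142638008) went from 77.4 to 25.7 and 61.4 to 26.7 CPM in ΔHD1/fl, from 35.1 to 11.9 and 179 to 38.7 CPM in ΔHD1/-, from 11.1 to 7.41 and 26.6 to 12.8 CPM in the ΔHD2/fl pair, and from 14.1 to 3.60, 18.6 to 8.80 and 19.8 to 8.92 CPM in ΔHD2/-. Its change was -1.30 ± 0.36 with a limma adjusted p of 0.0197. Both genes were lower in each line. Leaving out ΔHD2/fl line 2 ended the call of Ifit1 (limma adjusted p = 0.0766) and of Gbp2 (0.0855), and Gbp2 was also lost without ΔHD1/fl line 1 (0.0771) or ΔHD2/fl line 1 (0.0604).

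Isg15 and Ifit2 were lower in CPM in 9 of 9 lines but from very different levels. In ΔHD2/- line 2 Isg15 had 8 reads in both libraries, so its lower CPM there (0.360 to 0.296) came from library size alone. The log2 change of Isg15 ran from -2.84 to -0.07 between lines, and the fitted value of -1.30 had a limma adjusted p of 0.102 without the line block and of 0.00226 with it. Ifit2 had a fitted value of -1.20, with limma adjusted p of 0.13 and 0.0117. Oas3 (-1.23), Oasl1 (-1.02) and Psmb9 (-1.11) were likewise called with the block alone. Each of these 5 blocked calls rested on single lines. Isg15 was lost without ΔHD2/fl line 2 (-0.97) and Psmb9 without ΔHD1/fl line 2 (-0.94), both falling under the fold limit. Oas3 was lost without ΔHD1/fl line 1 (-0.84) or ΔHD1/- line 2 (-0.97). Ifit2 was lost without ΔHD1/- line 1 (limma adjusted p = 0.0539) or ΔHD2/fl line 1 (0.0536). Oasl1 was lost when any of 4 lines was left out, with values of -0.98 (ΔHD2/- line 1 left out), -0.81 (ΔHD2/fl line 2), -0.76 (ΔHD1/- line 1) and -0.70 (ΔHD1/fl line 1). The other immunoproteasome subunits, Psmb8 and Psmb10, had fitted values of -0.43 and -0.26 and were not called by limma.

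Ifi35, Ifit3 and Xaf1 were lower in every line by less than 1 log2 unit on average (-0.98, -0.75 and -0.98). The limma adjusted p was 0.00303 for Ifi35 and 0.00582 for Ifit3, and 0.0895 for Xaf1, an antagonist of the apoptosis inhibitor Xiap. Ifit3 and others at a few CPM or fewer have their changes understated by the added 1 CPM. Altogether 10 of 40 members (25%) were lower in all 9 lines and none was higher in all 9, against 15.69% and 5.411% of all tested genes. The other effectors (Usp18, Ifi44, Oas1a, Oas2, Oasl2, Mx1, Mx2, Rsad2, Bst2, Parp14 and Gbp3) had fitted changes from -0.84 to -0.16. They were not called by limma with or without the line block. Calls by edgeR are not given singly for these genes. Members of the Ifit, Oas, Mx and Gbp families have close paralogs, so their single counts are uncertain where reads match more than 1 copy.

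None of the class I molecules was called under TGFβ. The fitted log2 change was -0.08 ± 0.28 for H2-K1 and -0.15 ± 0.13 for H2-D1, with the lines split in direction and limma adjusted p of 0.877 and 0.468. B2m was higher in 8 of 9 lines by 0.33 ± 0.16, with a limma adjusted p of 0.156. The peptide transporter genes Tap1 and Tap2 and the loading factor Tapbp had values of -0.42, -0.68 and -0.46, and no one of them was called by limma. Nlrc5 was lower in 7 of 9 lines, with a fitted value of -0.42, and held at most 39 reads in any library. It would not have reached the minimum without the untreated libraries, where it was higher. Its fall is therefore a description and its p is not given. H2 genes differ between mouse strains, and reads of FVB/N cells were placed on a reference of another strain, so H2 levels are uncertain.

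H2-Ab1 (chr17:34263227-34269418) was the 1 member called higher. Under TGFβ it reached 3.49 and 0.248 CPM in ΔHD1/fl, 0 and 0 CPM in ΔHD1/-, 1.17 and 21.4 CPM in ΔHD2/fl, and 3.48, 14.8 and 18.5 CPM in ΔHD2/-. No library without TGFβ exceeded 0.317 CPM. It was higher in 7 of 9 lines and equal at 0 CPM in both ΔHD1/- lines. Since it passed the minimum only through the TGFβ libraries, where it was high, these levels are a description and its p is not given. The count model edgeR on the recovered reads did not call it. H2-Ab1 also belongs to a TGFβ gene list that the study drew from these samples, so its rise is not independent of that choice.

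**Figure D3:**
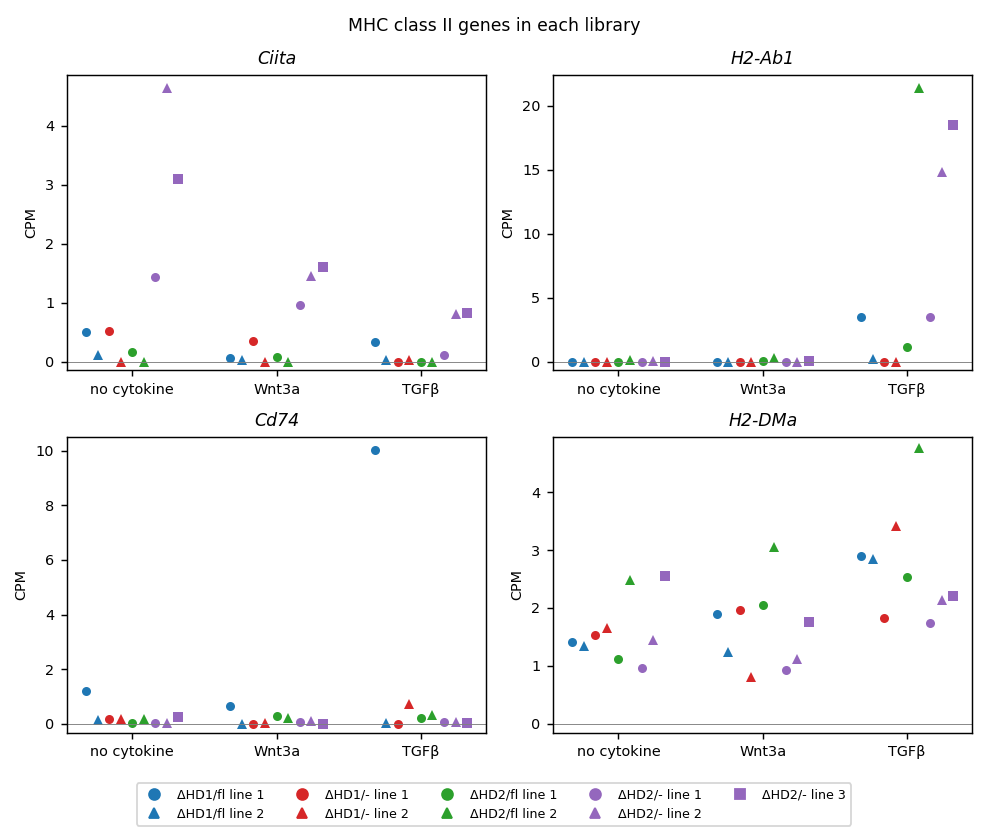
CPM of Ciita, H2-Ab1, Cd74 and H2-DMa in each of the 27 libraries by treatment, colored by genotype with a symbol per line. Ciita is highest in the ΔHD2/- lines without cytokine (1.44 to 4.64 CPM), H2-Ab1 exceeds 0.317 CPM under TGFβ alone, and Cd74 reaches 10.0 CPM in 1 library.

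Ciita was lower under TGFβ than without cytokine in 7 of 9 lines. The untreated ΔHD2/- values that led to its choice are the baseline here, so no test is given. Of the 3 lines with the most H2-Ab1 under TGFβ, ΔHD2/fl line 2 (21.4 CPM) was listed at 0 CPM of Ciita in all 3 treatments, whereas ΔHD2/- lines 2 and 3 (14.8 and 18.5 CPM) had the most Ciita under TGFβ, at 0.813 and 0.834 CPM. H2-DMa was higher in 8 of 9 lines by 0.53 ± 0.17, with a limma adjusted p of 0.0462. Cd74 was at 1.19 CPM without cytokine and 10.0 CPM under TGFβ in ΔHD1/fl line 1, and at or under 0.72 CPM in the other lines under TGFβ. It reached the minimum only through that line, so its p is not given. H2-Aa, the chain with which H2-Ab1 pairs, did not exceed 0.074 CPM in any library. Rfx5, a class II promoter factor outside the list, had a log2 change of -0.90 with a limma adjusted p of 0.000331.

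The level of H2-Ab1 under TGFβ is set beside the markers of other cell states, a view chosen after the values were known. Epcam was at 0.071, 12.6 and 0 CPM in the 3 lines with the least H2-Ab1 (ΔHD1/fl line 2 and ΔHD1/- lines 1 and 2), and at 117 to 965 CPM in the 6 lines with at least 1.17 CPM of H2-Ab1. Cdh1 was at 0.036, 4.29 and 0.288 CPM in those 3 lines and at 148 to 888 CPM in the 6, and Krt14 at 31.7, 143 and 87.3 CPM against 282 to 2008 CPM. The other keratins did not keep this order. Krt8 was at 4.54, 1370 and 2884 CPM in the 3 lines and at 748 to 2714 CPM in the 6, Krt18 at 1.03, 1079 and 29.2 CPM against 484 to 2280 CPM, and Krt5 at 0.178, 0 and 2.45 CPM against 0.21 to 909 CPM. The whole list summed to 37.6, 2609 and 3003 CPM against 2065 to 6672 CPM, so that the ranges overlap.

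Of the 9 myeloid and dendritic markers, Csf1r, a macrophage growth factor receptor, was higher under TGFβ in all 6 lines with H2-Ab1. It was at 0 to 2.85 CPM there without cytokine and at 2.70 to 20.8 CPM under TGFβ, with the top value in ΔHD2/fl line 2, and at 3.91, 1.59 and 67.6 CPM under TGFβ in the other 3 lines. Cd68, a lysosomal glycoprotein, was lower under TGFβ in 4 of the 6 lines and was at 2.06 to 8.87 CPM in them, against 2.59, 1.43 and 3.71 CPM in the other 3. Tyrobp was listed at 0 CPM throughout, and Adgre1, Flt3, Ptprc, Itgax, Itgam and Lyz2 did not exceed 0.043, 0.128, 0.252, 0.64, 1.01 and 2.32 CPM in any library.

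The 3 endothelial markers summed to 0.529 to 6.47 CPM under TGFβ in the 6 lines and to 0.817, 1.03 and 2.84 CPM in the other 3. Among them Cdh5, the endothelial cadherin, was higher under TGFβ in 9 of 9 lines, from at most 0.407 CPM to between 0.34 and 6.32 CPM, whereas Pecam1 was at 0.04 to 1.35 CPM under TGFβ against 0.043 to 2.07 CPM without cytokine, and Kdr did not exceed 0.252 CPM. The 7 fibroblast markers summed to 3.77 to 147 CPM under TGFβ in the 6 lines and to 1182, 66.8 and 4515 CPM in the other 3. The part of these markers in the H2-Ab1 levels was not tested.

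Outside the list, 59 further genes of these pathways were examined and 49 reached the minimum. Under TGFβ 5 were called lower and 1 higher (3.56% and 1.86% of all tested genes), and with the line block 7 and 1 (5.9% and 3.02%). The lower ones were the endosomal RNA sensor Tlr3 (-1.47), the RIG-I relative Dhx58 (-1.16), the nucleotide kinase Cmpk2 (-1.59), Trim30a (-1.15) and the GTPase Igtp (-1.03). Irgm1, a related GTPase, was higher in 9 of 9 lines by 1.12. Trim30a was lost without ΔHD1/- line 1 or ΔHD2/fl line 1, Igtp without ΔHD2/fl line 2 or ΔHD2/- line 1, and Irgm1 without ΔHD1/fl line 1 or ΔHD2/fl line 1, with limma adjusted p up to 0.0558, 0.0772 and 0.0556. None of 6 interferon receptor genes was called.

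The size of the TGFβ change differed between lines, as the plot of medians shows. The median over the members was -0.91 and -0.66 in ΔHD1/fl, -1.26 and -0.86 in ΔHD1/-, -0.19 and -0.50 in ΔHD2/fl, and -0.30, -0.10 and -0.23 in ΔHD2/-. Over all tested genes the medians lay between -0.21 and -0.003. All 4 ΔHD1 lines were below all 5 ΔHD2 lines, in a comparison that was not part of the tests. On this scale a gene near 0 CPM can fall only a little. Without cytokine Isg15 was at 0.360 and 0.837 CPM and Bst2 at 0 and 0.042 CPM in ΔHD2/- lines 2 and 3, which were closely alike. ΔHD2/- line 1 and the ΔHD2/fl lines held 6.90 to 15.0 CPM of Isg15 and 3.45 to 9.22 CPM of Bst2. The part of the starting levels in this order was not tested.

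**Figure D4:**
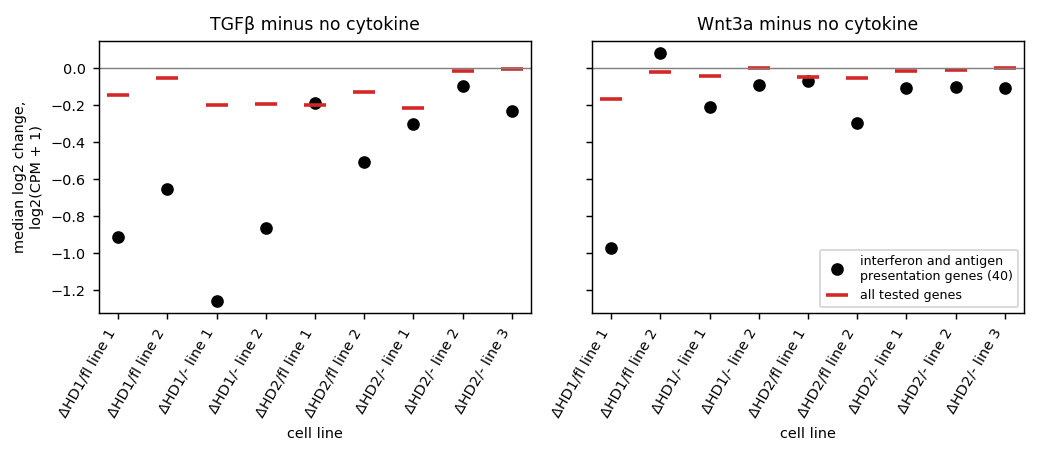
Median log2 change over the 40 tested interferon and antigen presentation genes (black points) and over all tested genes (red bars) in each line, for TGFβ (left) and Wnt3a (right), on log2(CPM + 1). Under TGFβ the 4 ΔHD1 lines range from -1.26 to -0.66, and under Wnt3a ΔHD1/fl line 1 stands apart at -0.97.

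Wnt3a gave no call among the members. Of 40 tested, 0 passed in limma with or without the line block and 0 in edgeR, where 0.0226% of all tested genes passed in limma and 0.241% with the block. At an unadjusted p below 0.05 there were 0 members in limma, 7 (17.5%) with the block and 0 in edgeR, against 4.63%, 17.3% and 3.78% of all tested genes. The median fitted log2 change was -0.27 over the members and -0.06 over all tested genes, and 34 of 40 member values were negative. Without ΔHD1/fl line 1 the median was -0.10 over the 36 members then tested, 25 of them negative, and -0.04 over all tested genes. Without ΔHD1/fl line 2 it was -0.39 over the members and -0.07 over all tested genes, with 36 of 40 negative. Then 14 members (35%) had an unadjusted p below 0.05 in limma and 23 (57.5%) with the block, against 11.6% and 26.8% of all tested genes, and 0 were called in both. In these fits 1 line stands for ΔHD1/fl.

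A single line had the lowest values. In ΔHD1/fl line 1, 34 of 40 members were lower under Wnt3a, with a median of -0.97 against -0.16 for all genes, and 20 of them were at least 1 log2 unit lower, as were 10.66% of all tested genes. Over the 36 members that reached the minimum without this line, 30 were lower and the median was -0.86. Of these 36, 17 were at least 1 log2 unit lower, as were 10.7% of the 13175 genes that reached it. The baseline here is the untreated library, where this line was highest for many members. That favors a fall, so these counts are a description. Irf7 went from 42.4 to 13.1 CPM, Bst2 from 86.2 to 16.9 CPM and B2m from 173 to 68.1 CPM in that line. Oas2, tested only through this line, went from 22.7 to 3.27 CPM. In ΔHD1/fl line 2, 26 of 40 members were higher, and Ifit1 went from 2.31 to 7.99 CPM and Ifit2 from 13.2 to 38.0 CPM. The medians of the other 7 lines ran from -0.29 to -0.07. The medians of the 2 ΔHD1/fl lines thus had opposite signs.

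Even so, ΔHD1/fl line 1 was the highest line for 13 of these 36 members under Wnt3a and for 23 of 36 under TGFβ, against 13.3% and 15.2% of the genes that reached the minimum without it.

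Loss of the floxed allele in the ΔHD1 background was compared under each treatment. None of 40 members was called between ΔHD1/- and ΔHD1/fl without cytokine (0.0678% of tested genes called), under Wnt3a (0.0452%) or under TGFβ (0.0301%). By limma 2, 0 and 3 members had an unadjusted p below 0.05 in these comparisons (5%, 0% and 7.5% of the members), as did 4.85%, 5.86% and 8.22% of all tested genes. edgeR called 0 members in each, with 0, 0 and 5 at that level, against 5.03%, 6.61% and 7.39% of all tested genes. The difference in the TGFβ or Wnt3a response between the 2 genotypes gave 0 members, with 0.00754% and 0% of tested genes called. At an unadjusted p below 0.05 there were 0 members in limma (0.98% and 0.113% of all tested genes) and in edgeR (1.05% and 0.188%). With the line as a block limma called 0 members. At that level it then had 6 (15%) for TGFβ and 1 (2.5%) for Wnt3a, against 8.22% and 1.17% of all tested genes. The 2 ΔHD1/fl lines differed widely, and without ΔHD1/fl line 2 limma called some members in each of the 3 comparisons. This also held over the 36 members that reached the minimum without ΔHD1/fl line 1. In those fits ΔHD1/fl line 1 alone stands for its genotype and is assumed to vary like the lines of the other groups. The list was also chosen with differences between these lines in view. The counts are therefore given only as the upper ends of the ranges over lines left out, and nothing is read from these calls.

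In the ΔHD2 background the difference in response between ΔHD2/- and ΔHD2/fl gave no member for TGFβ (0.0301% of tested genes called) or Wnt3a (0.0151%). In limma 1 member, Ciita, had an unadjusted p below 0.05 for TGFβ and 0 for Wnt3a (1.35% and 0.558% of all tested genes), and in edgeR 0 and 0 (0.836% and 0.151%). With the line as a block limma called 0 members, with 1 and 1 at that level (8.79% and 2.82% of all tested genes). These comparisons contain the untreated difference that entered the choice of genes. Isg15, Oasl1, Oasl2 and Bst2 were lower in ΔHD2/- lines 2 and 3 than in both ΔHD2/fl lines without cytokine, but ΔHD2/- line 1 was not, with 9.61 CPM of Isg15, 4.98 CPM of Oasl1, 2.58 CPM of Oasl2 and 8.87 CPM of Bst2.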

How the data were processed

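The authors deposited CPM values per Entrez gene, that is reads scaled to 1000000 per library. Per the labels and the study's methods, poly(A) RNA was sequenced from stranded libraries and aligned with STAR to mm10. The strand setting of the counting is not given in the sources used here. Each CPM value was a whole multiple of 1 read (100.0% within 0.01 read), so reads were recovered. Of 24454 identifiers 24374 matched RefSeq names.

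The members and gene lists were chosen with earlier results of these data known, and 1 further pathway gene is not reported here. The limma model (version 3.58.1) was fitted to log2(CPM + 1) of every gene that reached 1 CPM in 2 or more libraries (R 4.3.3, trend and robust variance), with 12 group means, Benjamini-Hochberg adjustment, and calls at adjusted p of at most 0.05 and a log2 change of at least 1. Treatment responses were averaged over the 4 genotypes. The cell line was the block, since each line was split over the treatments. edgeR 4.0.16 quasi-likelihood was an alternative on recovered reads. Values were given for Ciita, the class II genes, B2m, H2-K1, H2-D1, Nlrc5, called members, members moving one way in all 9 lines and the 3 with the widest untreated range. Fits were tested on simulated data. The labels call the lines biological replicates from separate mice.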

Additional observations from a re-analysis of the deposited data

How the results depend on the processing

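The 5 members called under TGFβ (5.42% of all tested genes called) became 10 without the fold limit (16.8%), 16 at an unadjusted p with a 1.5-fold change (16.3%), 9 with a pseudocount of 0.1 (6.95%) and 10 with the replicate block (8.92%), and they ranged from 3 to 8 when each line was left out (3.46% to 7.09%). Chosen after seeing the data, the block with ΔHD2/- lines 2 and 3 averaged gave 10 (9.05%), the block on median-of-ratios scaled values gave 9 (8.54%), and the block without each line gave 8 to 11 (8.19% to 10.6%). With median-of-ratios scaling the median of all tested genes moved from -0.16 to -0.02 and that of the members from -0.59 to -0.51, and 32 of 40 changes were negative. The 0 members called under Wnt3a stayed at 0 in every setting.

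For ΔHD1/- against ΔHD1/fl the unadjusted p with a 1.5-fold change gave 2, 0 and 3 members without cytokine, under Wnt3a and under TGFβ (3.77%, 4.75% and 6.99% of all tested genes). Leaving out a line gave 0 to 6, 0 to 7 and 0 to 6 at the usual limits. The upper ends came only from the fit without ΔHD1/fl line 2, where ΔHD1/fl line 1 alone stands for its genotype. They include members that reached the minimum only through ΔHD1/fl line 1, so nothing is read from these upper ends. For the 2 response differences in ΔHD1, leaving out a line gave 0 members, except for Oas2 without ΔHD1/fl line 2. That fit has ΔHD1/fl line 1 alone for its genotype. Oas2 reached the minimum only through this line, so nothing is read from that call. For ΔHD2/- against ΔHD2/fl without cytokine, 1 member (Ciita) became 0 with a pseudocount of 0.1, in edgeR, in the fit of only the groups compared and with lines 2 and 3 averaged, and 0 to 2 when a line was left out, the 2 without ΔHD2/- line 1, where 5.67% of all tested genes were called. At the unadjusted p 1 member was counted under Wnt3a (Ciita, higher in ΔHD2/-) and 1 under TGFβ (Ifih1, lower in ΔHD2/-), or 2.5% of the members each, against 7.39% and 6.25% of all tested genes. At the usual limits each count was 0, or 1 without ΔHD2/- line 1 (5.17% and 3.37%). The difference in TGFβ response in ΔHD2 gave 1 (Ciita) at the unadjusted p (1.29%). The study made the recombined lines from cells with 1 floxed and 1 mutant allele, and the labels do not say which fl line each came from. The replicate number as a block between genotypes, which the labels tie to no shared tumor, changed the count of members in none of the 6 comparisons. Deviations of same-numbered lines correlated at 0.0871 to 0.472. Of 1146 values of single genes in the TGFβ and Wnt3a responses under alternatives, the comparisons between genotypes not included, 1077 kept their call, 5 lost it, 64 gained it and 0 reversed. Genes at a few CPM, Ciita and H2-Ab1 among them, are limited by depth. The cause of these changes was not tested.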
